A study of Saccharomyces cerevisiae with 10 samples.

Results

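The 8 genes described here encode peptidases of budding yeast, Saccharomyces cerevisiae, that return amino acids from proteins and peptides to the cell. They were taken by systematic name from a table of 6292 open reading frames, as the 7 vacuolar enzymes PEP4 (YPL154C), PRB1 (YEL060C), PRC1 (YMR297W), LAP4 (YKL103C, named APE1 in RefSeq), APE3 (YBR286W), CPS1 (YJL172W) and DAP2 (YHR028C), and the cytosolic LAP3 (YNL239W). The rule for the choice used no measured value, but it was made with earlier results of these data known. All 8 had a usable value at every hour, and in RefSeq's R64 annotation none overlapped another annotated gene. The cells were wild-type diploids, with no strain background named. Their yeast-form growth was in SHAD liquid, with ample glucose and ammonium, and their filamentous-form growth on SLAD, an agar with little ammonium. Each of 10 two-colour arrays, 1 for each hour from 1 to 10, set filamentous-form RNA of that hour beside yeast-form RNA. Liquid against agar, high against low ammonium and yeast against filamentous form change together in this design and cannot be told apart.

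The yeast vacuole is the cell's main compartment for breaking down proteins. Most of its peptidases are made as inactive precursors, and proteinase A, the product of PEP4, starts the chain of cuts that activates several of the others. Proteins reach the vacuole by autophagy and by vesicle transport, and the amino acids set free there are moved to the cytosol by transporters in the vacuolar membrane. The vacuolar peptidases are known to become more active when nitrogen runs short.

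Values are log2 ratios, likely of filamentous over yeast form, after each array was centred on its median. The labels do not give that direction. It was taken from the channel order and from 6 genes of nitrogen use (DAL80, DAL4, DAL7, DAL2, GAP1 and MEP2), all of which had mean ratios above 0, from 1.15 to 3.03. If the ratio ran the other way, every sign below would turn, and every percentile of a ratio would count from the other end. The array medians before centring lay between 0.12 and 0.39. A mean over hours was tested against 0 with limma, and a gene passed at an adjusted p under 0.05 over the 5775 genes with at least 8 values. With 1 array at each hour, the error is the scatter about a smooth curve over hours, which may be technical, since no label speaks of separate cultures. A lower ratio may come from fewer cells holding the transcript or from less of it in each cell, which cannot be told apart here. Across genes, 2 odd-hour arrays or 2 even-hour arrays were more alike (mean Pearson's r of 0.60 over 20 pairs) than an odd-hour and an even-hour array (0.45 over 25 pairs). The labels name no such batch, so means over odd and over even hours are given for every member. Over all genes tested, 22.6% passed as higher and 22.4% as lower. Genes that diploid cells keep off, those of mating and haploid cells, had 2 of 13 tested members higher and 4 lower, and genes of meiosis and sporulation 1 of 10 higher and 2 lower. On the deposited scale, before centring, these counts were 4 higher and 1 lower, and 1 higher and 1 lower. Such ratios do not show whether those genes were expressed. On the deposited scale the ratios of all genes lie higher, since every array median was above 0. The share of all genes that passed on that scale was not counted, so its counts here and below lack that background.

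Over the 10 hours, with the likely direction of the ratio, 4 of the 7 vacuolar members were lower in the filamentous form. The cytosolic LAP3 was higher. The lower ones were PEP4, PRB1, PRC1 and APE3. The vacuolar LAP4, CPS1 and DAP2 did not pass, and their means lay above 0 (0.40, 0.31 and 0.22). Of all genes tested, 22.4% were lower and 22.6% higher. The 4 lower members therefore stand beside a background in which lower calls were common, as were higher ones. The median of the 8 means was -0.28, and that of the 7 vacuolar members -0.78, against 0.08 over all genes tested.

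**Figure D1:**
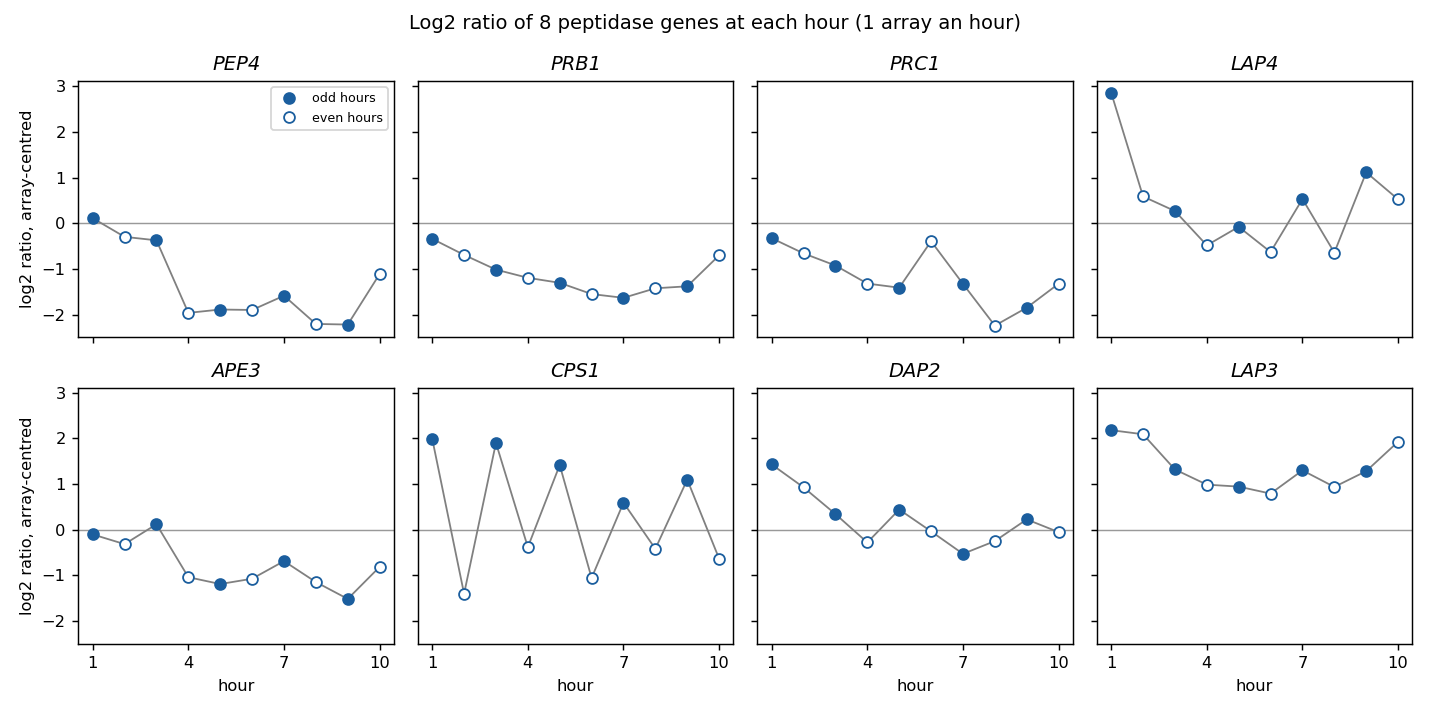
Log2 ratio of each of the 8 peptidase genes (vertical axis, array-centred) at hours 1 to 10 (horizontal axis), with odd hours as filled and even hours as open circles and 1 array an hour. PEP4 was at 0.11 at hour 1 and -2.22 at hour 9, LAP3 stayed above 0 at every hour, and the odd hours of CPS1 all lay above its even hours.

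PEP4 encodes proteinase A, the aspartyl protease that activates other vacuolar hydrolases. Its ratio was 0.11 at hour 1, -0.30 at hour 2 and -0.38 at hour 3. It then stood at -1.96, -1.89, -1.90, -1.59, -2.21 and -2.22 from hour 4 to hour 9, and at -1.11 at hour 10. The first 3 hours were thus the highest, and every later hour lay below all of them. This split was read from the values, and how many of all genes tested show it was not counted. Ranked among all ratios of the same array, PEP4 was at the 53.7th percentile at hour 1, the 34.7th at hour 3, the 4.5th at hour 4 and the 2.9th at hour 6. Its mean was -1.34 ± 0.87 (SD over hours, n = 10), a 2.54-fold lower level (limma, adjusted p = 3.8e-05). The means were -1.19 over odd and -1.50 over even hours.

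PRB1 encodes proteinase B, a serine protease of the subtilisin kind that carries on the activation started by proteinase A. Its ratio was -0.34 at hour 1, -0.69 at hour 2, -1.02 at hour 3, -1.20 at hour 4 and -1.31 at hour 5. It was -1.55 at hour 6, -1.63 at hour 7, -1.43 at hour 8, -1.38 at hour 9 and -0.70 at hour 10. It was below 0 on all 10 arrays, as were 14.3% of the genes tested, and each step up to hour 7 went down. The mean was -1.13 ± 0.42 (SD, n = 10; limma, adjusted p = 7.1e-06), with -1.14 over odd and -1.11 over even hours.

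PRC1 encodes carboxypeptidase Y, a serine carboxypeptidase that is the classic cargo of the sorting route to the vacuole. Its ratio was -0.33 at hour 1, -0.66 at hour 2, -0.93 at hour 3, -1.32 at hour 4 and -1.41 at hour 5. It was -0.40 at hour 6, -1.33 at hour 7, -2.24 at hour 8, -1.85 at hour 9 and -1.33 at hour 10. All 10 values were below 0, and hour 6 stood above both of its neighbours. The mean was -1.18 ± 0.61 (SD, n = 10; limma, adjusted p = 0.00018), with -1.17 over odd and -1.19 over even hours.

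APE3 encodes aminopeptidase Y, which removes residues from the amino end of peptides in the vacuole. Its ratio was -0.10 at hour 1, -0.32 at hour 2 and 0.12 at hour 3. From hour 4 to hour 10 it was -1.04, -1.19, -1.07, -0.69, -1.15, -1.51 and -0.81. As for PEP4, the first 3 hours were the highest and did not overlap with the later ones, again without a count over all genes. The mean was -0.78 ± 0.53 (SD, n = 10; limma, adjusted p = 0.00089), with -0.68 over odd and -0.88 over even hours. With odd hours alone, 5 arrays, the adjusted p was 0.054.

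LAP4 encodes aminopeptidase I, a metallopeptidase that reaches the vacuole from the cytosol by the Cvt pathway, a selective form of autophagy. Its ratio was 2.86 at hour 1, 0.58 at hour 2, 0.27 at hour 3, -0.49 at hour 4 and -0.08 at hour 5. It was -0.63 at hour 6, 0.53 at hour 7, -0.64 at hour 8, 1.11 at hour 9 and 0.52 at hour 10. The value of hour 1, at the 99.3rd percentile of that array, stood far above all others. The mean was 0.40 ± 1.04 (SD, n = 10; limma, adjusted p = 0.13), and 0.13 without hour 1 (adjusted p = 0.60). It was 0.94 over odd and -0.13 over even hours, and the mean passed in the fit with an odd-or-even term (adjusted p = 0.029). On the deposited scale, without centring, it was 0.70 (adjusted p = 0.011).

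DAP2 encodes dipeptidyl aminopeptidase B, a serine peptidase held in the vacuolar membrane. Its ratio was 1.43 at hour 1, 0.93 at hour 2, 0.34 at hour 3, -0.28 at hour 4 and 0.44 at hour 5. It was -0.04 at hour 6, -0.53 at hour 7, -0.25 at hour 8, 0.23 at hour 9 and -0.05 at hour 10. Hours 1 and 2 were the highest, and the later values lay on both sides of 0. The mean was 0.22 ± 0.60 (SD, n = 10; limma, adjusted p = 0.16), with 0.38 over odd and 0.06 over even hours, and on the deposited scale it was 0.52 (adjusted p = 0.0051). It was 0.09 without hour 1 (adjusted p = 0.63) and 0.14 without hour 2 (adjusted p = 0.42).

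LAP3 encodes the yeast bleomycin hydrolase, a cysteine aminopeptidase of the cytosol. Its ratio was 2.18 at hour 1, 2.09 at hour 2, 1.32 at hour 3, 0.99 at hour 4 and 0.94 at hour 5. It was 0.79 at hour 6, 1.30 at hour 7, 0.94 at hour 8, 1.28 at hour 9 and 1.93 at hour 10. All 10 values were above 0, which held for 9.84% of the genes tested, and hours 1, 2 and 10 were the highest. The mean was 1.38 ± 0.51 (SD, n = 10), 2.59-fold higher (limma, adjusted p = 4.1e-06), with 1.40 over odd and 1.35 over even hours.

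**Figure D2:**
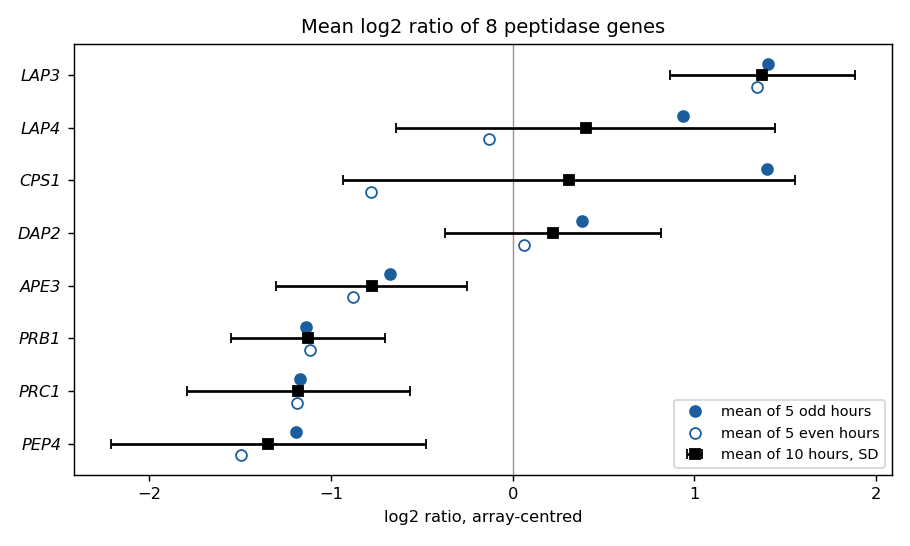
Mean log2 ratio of each peptidase gene over 10 hours (black squares, bars are the SD over hours), with means over the 5 odd hours (filled circles) and the 5 even hours (open circles). LAP3 at 1.38 and PEP4 at -1.34 are the extremes, and odd and even means lie on opposite sides of 0 for CPS1 and LAP4.

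On the same arrays, the ratio of LAP3 exceeded those of PEP4, PRB1, PRC1, APE3 and DAP2 on 10 of 10 arrays, that of LAP4 on 9 and that of CPS1 on 8. The exceptions were hour 1 for LAP4 and hours 3 and 5 for CPS1. The mean difference in log2 ratio was 2.72 ± 0.53 (SD over arrays, n = 10) from PEP4 and 2.50 ± 0.25 from PRB1. The difference from PRB1 had the smaller spread, and lay between 2.18 and 2.93 at every hour. The 4 lower members were not tested against each other. PEP4 was above PRC1 on 5 of 10 arrays, with a mean difference of -0.17 ± 0.62 (SD), and PRB1 was above PRC1 on 5, with 0.05 ± 0.55. PRB1 was above APE3 on 2 of 10 arrays, with -0.35 ± 0.41.

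CPS1 encodes carboxypeptidase S, a zinc peptidase that reaches the vacuole lumen through the multivesicular body after it is tagged with ubiquitin. Its odd hours were 1.99 at hour 1, 1.90 at hour 3, 1.42 at hour 5, 0.59 at hour 7 and 1.10 at hour 9. Its even hours were -1.40 at hour 2, -0.38 at hour 4, -1.06 at hour 6, -0.42 at hour 8 and -0.63 at hour 10. Every odd hour lay above 0 and every even hour below it, so the groups did not overlap. Every odd hour lay above every even hour for 5.4% of the genes tested. The mean over all hours, 0.31 ± 1.25 (SD, n = 10; limma, adjusted p = 0.54), is thus a mean of opposite values, and ran from 0.12 without hour 1 to 0.50 without hour 2. With odd hours alone the mean was 1.40 (limma, 5 arrays, adjusted p = 0.0037), and with even hours alone it was -0.78 (adjusted p = 0.023). Both p-values rest on a split known from an earlier analysis of these same arrays, so they are no independent test of it. How many of all genes passed in either set of hours was not counted.

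The odd-or-even term was fitted with limma beside the terms in hour, and 6.35% of the genes tested passed. CPS1 was the only one of the 8 members to pass, with odd hours higher by 2.14 (SE 0.34, adjusted p = 0.011), a size at the 98.1st percentile of all genes tested. It passed in all 21 settings in which this fit was run, with adjusted p-values from 0.0059 to 0.036. LAP4 had a difference of 0.98 (SE 0.26, adjusted p = 0.066) and passed without hour 3 and with array weights. For the other 6 members the difference ran from -0.12 for PRC1 to 0.19 for DAP2, with adjusted p-values of 0.71 and above. The grouping by odd and even hours came from an earlier analysis of these same arrays, so these p-values are no independent test of it. What set odd and even arrays apart was not tested.

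**Figure D3:**
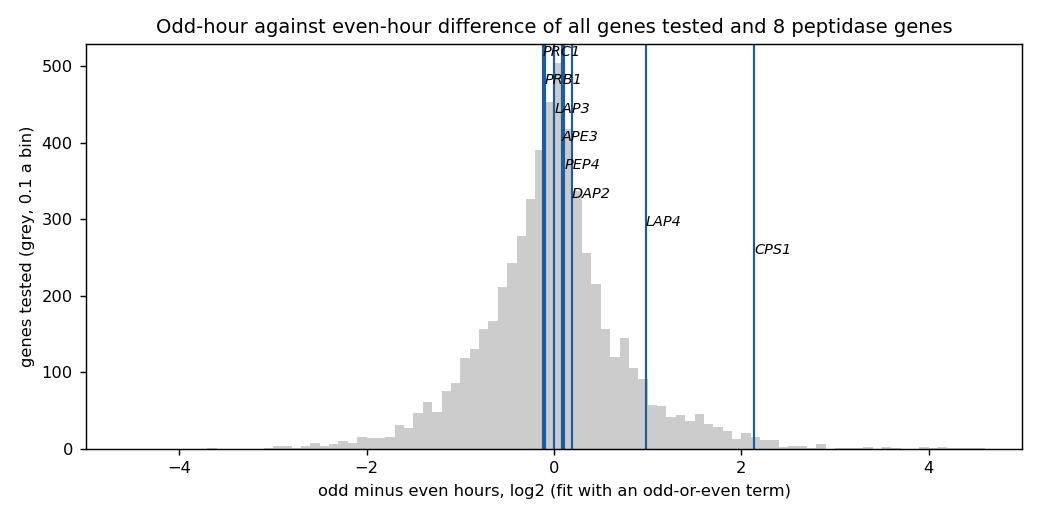
Difference between odd and even hours in log2 ratio (horizontal axis) for all 5775 genes tested (grey bars, genes per bin of 0.1) and for the 8 peptidase genes (blue lines). CPS1 lies at 2.14 and LAP4 at 0.98, while the other 6 lie between -0.12 and 0.19.

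A further question was whether the members changed over the hours. No member passed for a linear change or for curvature, and neither did any of the 5775 genes (0% for each, limma), of which 11.1% and 10.4% had an unadjusted p under 0.05. At that level 4 members had a negative slope, as did 4.97% of the genes tested, and 0 members a positive one, as did 6.13%. These were PEP4 at -0.20 per hour (SE 0.05, unadjusted p = 0.0028, limma adjusted p = 0.27), DAP2 at -0.14 (unadjusted p = 0.0091), APE3 at -0.12 (unadjusted p = 0.026) and PRC1 at -0.14 (unadjusted p = 0.030). The fitted slope was below 0 for all 8 members, against 48.8% of genes tested. These counts rest in part on hour 1. Without it, PEP4 alone had a slope with an unadjusted p under 0.05 (0.034), with 0.081 for APE3, 0.11 for PRC1 and 0.13 for DAP2. The fitted slope was then below 0 for 7 members, with LAP4 at 0.04. The count of 4 was 2 without hour 2, 3 without hour 8 or hour 9, and 6 without hour 10.

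Curvature asks whether values were lower, or higher, in the middle hours than at both ends. At an unadjusted p under 0.05, 5 members had a positive curvature, lower in the middle, as did 5.28% of the genes tested, and 0 members a negative one, as did 5.16%. These were LAP3 (unadjusted p = 0.0022), LAP4 (unadjusted p = 0.0046), PRB1 (unadjusted p = 0.0054), PEP4 (unadjusted p = 0.0077) and DAP2 (unadjusted p = 0.028), with limma adjusted p-values from 0.27 to 0.44. The count of 5 was 3 without hour 1, where LAP4 had an unadjusted p of 0.092 and DAP2 of 0.13. It was also 3 without hour 10, and 4 without hour 4 or hour 7. Hour 1 held the highest value of 7 members, all but APE3, and of 14% of the 4956 genes with every value. The median of the 7 vacuolar members was 0.11, -0.32 and 0.12 at hours 1 to 3. It was -1.04, -1.19, -1.06, -0.69, -1.15, -1.38 and -0.70 from hour 4 to hour 10, so all later hours lay below the first 3. That split was read from the values, with no count of it over all genes tested. The 8 genes share their arrays, so they are not independent of each other in this.

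The vacuolar proteases have inhibitor proteins in the cytosol. PBI2 encodes the inhibitor of proteinase B, and its ratio was above 0 on all 10 arrays, between 0.76 at hour 7 and 3.19 at hour 10. Its mean was 1.97 ± 0.71 (SD, n = 10; limma, adjusted p = 6.4e-06), on the opposite side of 0 from PRB1. PAI3, the inhibitor of proteinase A, had 8 values between -2.43 and 3.21 and did not pass (limma, adjusted p = 0.72). Its mean was -1.64 over 3 odd and 1.11 over 5 even hours, which did not pass as a difference (limma, -2.47, SE 0.83, adjusted p = 0.14). The fitted mean lay between -0.31 and 0.70 when an hour was left out. TFS1, the inhibitor of carboxypeptidase Y, was at 0.55 ± 1.10 (SD, n = 10; limma, adjusted p = 0.19). Its mean was 1.41 over odd and -0.31 over even hours, and like CPS1 it passed for the odd-or-even term (limma, difference 1.67, SE 0.38, adjusted p = 0.038). The mean of TFS1 passed in 5 of 25 settings. These were odd hours alone (adjusted p = 0.013), adjacent hours averaged (0.023), without hour 2 (0.034), the fit with an odd-or-even term (0.037) and the deposited scale (0.045).

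**Figure D4:**
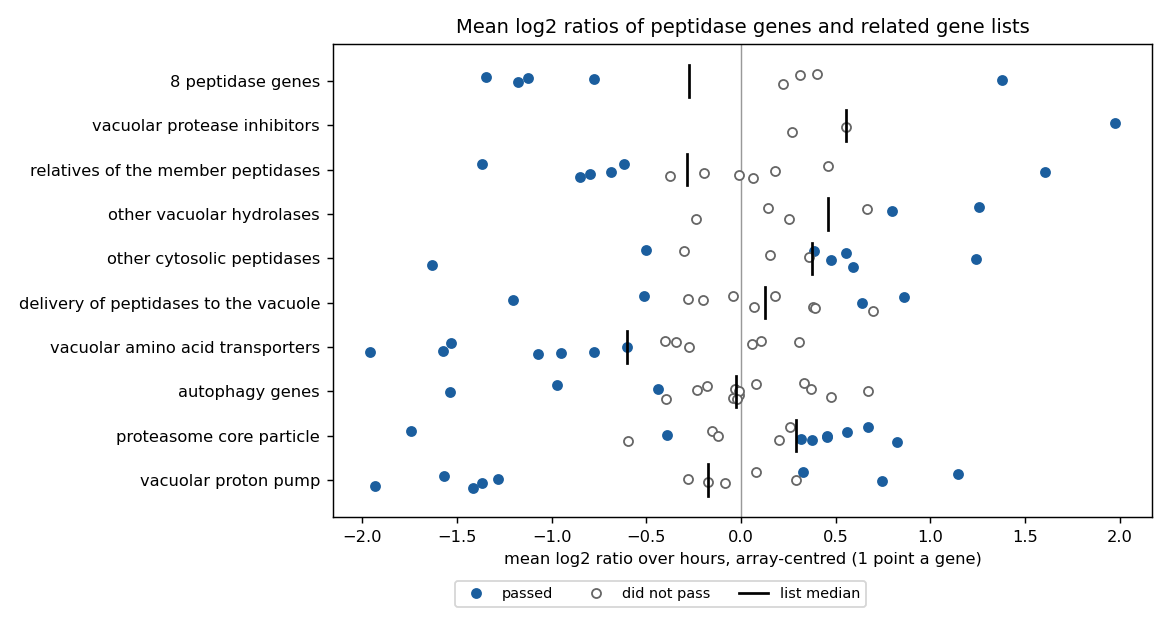
Mean log2 ratio over hours of each gene tested (1 point a gene, horizontal axis) in the 8 peptidase genes and 9 related lists, filled where limma's adjusted p was under 0.05, with the list median as a black line. The vacuolar amino acid transporters have 7 members lower and 0 higher, where 22.4% of all genes tested were lower and 22.6% higher. PBI2 at 1.97 is the highest of the inhibitors.

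Relatives of the members by protein family were measured as well, 12 of 13 with at least 8 values. Of these, 5 passed as lower and 1 as higher, beside 22.4% and 22.6% of all genes tested. On the deposited scale 3 were lower and 2 higher. The yapsins YPS1, MKC7 and YPS3, aspartyl proteases of the cell surface related to PEP4, had means of -1.37 ± 0.82, -0.85 ± 0.57 and -0.62 ± 0.69 (SD, n = 10; limma, adjusted p = 0.0018, 0.0048 and 0.019). YPS3 did not pass on the deposited scale (limma, adjusted p = 0.17), with even hours alone (0.21) or without hour 7 (0.056). MKC7 did not pass with odd hours alone (adjusted p = 0.052). KEX1, a Golgi carboxypeptidase related to PRC1, was at -0.69 ± 0.38 (adjusted p = 0.0011), and ATG42, a vacuolar relative of PRC1, at -0.01 ± 0.58. STE13, the Golgi relative of DAP2, was at 1.45 over odd and -0.54 over even hours, a difference of 2.03 (limma, SE 0.21, adjusted p = 0.0030), where DAP2 itself had 0.19. PFF1, a putative metallopeptidase of the vacuolar membrane, was lower, at -0.80 ± 1.10 (adjusted p = 0.036), a call lost in 12 of 25 settings. YSP3, a relative of PRB1 with 8 values, was higher, at a fitted mean of 1.61 (limma, adjusted p = 0.017). That call was lost with odd hours alone (adjusted p = 0.20), with adjacent hours averaged (0.071) and without hour 9 (0.051).

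Transporters that move amino acids across the vacuolar membrane, and others of their families, made a list of 13 tested genes. Of these, 7 were lower and 0 higher (median -0.60), beside 22.4% and 22.6% of all genes tested. YPQ1, an exchanger of basic amino acids, was at -1.96 ± 0.29, AVT1, which carries neutral amino acids into the vacuole, at -1.57 ± 0.30, and AVT5 at -1.53 ± 0.75 (SD, n = 10; limma, adjusted p = 1.1e-06, 8.5e-07 and 2.5e-06). Without centring, 6 were lower and 1 higher (median -0.29). Other peptidases of the cytosol, the compartment of LAP3, had 5 of 10 higher and 2 lower (median 0.37), and 7 higher and 1 lower without centring (median 0.67). Without centring the ratios of all genes lie higher, and the share of all genes passing there was not counted. DUG2, of a complex that breaks down glutathione, was at 1.24 ± 0.40, and DUG1, a dipeptidase that acts on the product of that step, at -1.63 ± 0.36 (limma, adjusted p = 1.5e-05 and 3.0e-06). APE2, an aminopeptidase, was at 0.55 ± 0.27 (limma, adjusted p = 0.00074), a call lost with odd hours alone (adjusted p = 0.087).

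Genes that deliver the members to the vacuole had 2 of 12 tested genes higher and 2 lower (median 0.12). Of all genes tested, 22.6% were higher and 22.4% lower. Without centring, the delivery genes had 7 higher and 1 lower (median 0.42). TUL1, a ubiquitin ligase of the Golgi that acts on carboxypeptidase S, was at -1.20 ± 0.46 (limma, adjusted p = 0.00019), and PEP1, the receptor of carboxypeptidase Y, at -0.51 ± 0.35 (adjusted p = 0.0051). ATG19, the receptor of aminopeptidase I, was at 0.64 ± 0.79 (adjusted p = 0.0020), with its highest value, 2.30, at hour 1, as for LAP4. The call of ATG19 was lost with even hours alone (mean 0.37, adjusted p = 0.30) and with adjacent hours averaged (adjusted p = 0.087). PEP1 did not pass on the deposited scale (mean -0.22, adjusted p = 0.15) or with odd hours alone (mean -0.46, adjusted p = 0.14). Other vacuolar hydrolases had 2 of 6 higher and 0 lower (median 0.46), and 5 higher without centring. They include AMS1, a mannosidase that also travels by the Cvt pathway, at 0.80 ± 0.70 (limma, adjusted p = 0.013). The call of AMS1 was lost with odd hours alone (adjusted p = 0.32). They also include ATH1, an acid trehalase with 8 values, at a fitted mean of 1.26 (adjusted p = 0.045), a call lost in 11 of 24 settings.

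Among the groups most like the peptidases, 0 of 16 core autophagy genes passed as higher and 3 as lower (median -0.03), beside 22.6% and 22.4% of all genes tested. Without centring these counts were 2 and 2 (median 0.27). The 3 lower after centring were ATG14 at -1.53 ± 0.83, ATG18 at -0.97 ± 0.19 and ATG17 at -0.44 ± 0.39 (SD, n = 10). The call of ATG17 was lost on the deposited scale (mean -0.14, limma adjusted p = 0.33) and in 3 of the other settings. Of 14 core proteasome genes, 7 passed as higher and 2 as lower (median 0.29). Without centring 9 passed as higher and 1 as lower (median 0.58). Among them were SCL1 at -1.74 ± 0.53 and PRE1 at 0.67 ± 0.28. The call of PRE1 was lost with odd hours alone (limma, adjusted p = 0.053). The vacuolar proton pump makes the acid that these peptidases work in. Its list had 5 of 13 tested genes lower and 3 higher, and the median was -0.18 (0.12 without centring). The lower ones include STV1 (-1.37), which belongs to the Golgi form of the pump rather than the vacuolar one. VMA3, VMA11 and VPH1 were at -1.93 ± 0.18, -1.42 ± 0.23 and -1.28 ± 0.17. The 3 higher ones were VMA7 at 1.15 ± 0.22, VMA6 at 0.74 ± 0.40 and VMA2 at 0.33 ± 0.25.

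Log2 ratios over hours were compared with those of the 4266 other genes that had a standard symbol and all 10 values, by their root-mean-square difference. That difference counts the level of a ratio as well as its change over hours. The nearest genes lie below the median difference by the way they were picked. For PEP4 the nearest genes were AVT5 (0.39), CHS1 (0.44) and CPR1 (0.48), where the median over all genes was 1.77. For PRB1 they were ATG22 (0.17), a vacuolar membrane protein that exports amino acids, YPF1 (0.29) and CSC1 (0.30). For PRC1 they were HAC1 (0.39), MLF3 (0.39) and CWC24 (0.41), and for APE3 RHB1 (0.21), COS2 (0.23), which belongs to a family of near-identical genes, and GPM2 (0.24). For LAP3 they were NPR1 (0.32), a protein kinase that acts on permeases of nitrogen sources, DUG2 (0.38) and DSD1 (0.38). AVT5 and ATG22 also belong to the list of transporters above, and DUG2 to that of cytosolic peptidases.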

How the data were processed

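Each array gave 1 value per open reading frame, and the deposited table holds these as log2 ratios of the 2 channels. Log base 2 was read from the values. Raising base 2 to the values gave whole ten-thousandths (to within 0.1) in 99.9% of cases, and base e in 18.0%. Scanner, dyes, background correction and normalization were not given in the sources used here, and signal over background is unknown.

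No value of the table is exactly 0. All 62920 values are printed with 7 decimals and end in the digit 3, for a reason that the file does not show, and 0.0000003 occurs 3324 times (5.28%), where the 10 neighbouring steps hold 82.9 on average. Values within 1e-06 of 0 were therefore taken as zeros and as missing, a choice made with the values known.

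Names were matched to RefSeq's R64 gene table (5792 matched, 500 not). Arrays were centred on their medians and limma 3.58.1 in R 4.3.3 was fitted with the mean over hours, a slope and a curvature orthogonal to both, on genes with at least 8 values. All were two-sided, adjusted after Benjamini and Hochberg with a threshold of 0.05, over all 5775 genes. A second fit added odd or even hour. The code was tested on simulated data. Alternatives covered scaling, zeros, filters, variance models, array weights, time models, odd and even hours, left-out hours and thresholds. From each related list up to 3 genes past the threshold with the smallest adjusted p are named, with all inhibitors and relatives allowed. STV1 and the 3 higher genes of the proton pump are named beside these. The members and lists were chosen with earlier results of these data known. Figures were drawn with matplotlib 3.10.9.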

Additional observations from a re-analysis of the deposited data

Results flagged for a closer look

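In 6 of the 50 genes named here or examined beside them, 1 hour stood apart from the other 9 by more than 0.466 of the gene's whole range, the 95% critical value of Dixon's test for 10 values. For independent, normally distributed values, chance gives about 1 such gene in 20. Values over hours need not be of that kind, and some of these genes were named by their adjusted p. Whether 6 of 50 is more than chance gives was therefore not tested. LAP4 was at 2.86 at hour 1, where its next highest value was 1.11. KEX2, a Golgi relative of PRB1, was at -1.31 at hour 3, where its next lowest value was -0.39. PFF1 was at 2.13 at hour 10, where its next highest value was -0.44. PRE6, of the proteasome core, was at 3.28 at hour 10, where its next highest value was 0.94. ATG18 was at -0.51 at hour 5, where its next highest value was -0.87. DAL4, of the genes used for the direction of the ratio, was at 1.43 at hour 2, where its next lowest value was 2.43.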

How the results depend on the processing

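PEP4, PRB1, PRC1 and LAP3 kept their direction and passed in all 25 alternative fits, with means from -1.51 to -1.05, -1.21 to -0.83, -1.27 to -0.88 and 1.29 to 1.67. APE3 passed in 24 of 25 (-0.88 to -0.48), all but odd hours alone. The count of lower members, 4, was 3 with odd hours alone, 5 with even hours alone, where CPS1 joined it, and 4 in the other alternatives. The count of higher members, 1, was 3 on the deposited scale, 2 in the fit with an odd-or-even term and 2 with odd hours alone. With even hours alone LAP4 turned to -0.13 and CPS1 to -0.78. The count for odd against even hours, 1, was 2 with array weights, 0 at an adjusted p under 0.01, 2 at an adjusted p under 0.1, and 1 to 2 with an hour left out. No alternative gave a member a call for slope or curvature. Of 948 counts and medians of the other lists under alternatives, 81 moved by over 1.5 times or to or from 0 (counts) or by over the SD of the list's median over hours (medians), and 867 stayed within that. No paired analysis was possible because there is 1 group, with 1 array an hour. The number of arrays limits the precision.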
